A study of Homo sapiens with 6 samples.

Results

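Plasma membrane amino acid transporters were examined in A549 cells, a human line derived from a lung adenocarcinoma, after the solvent DMSO or a compound that the labels abbreviate as BRQ. The 9 genes were chosen by name, with earlier results of these data known. Each was found among the 17335 genes of the deposited table: SLC7A5, SLC7A6, SLC43A2, SLC7A1, SLC7A2, SLC1A4, SLC1A5, SLC38A1 and SLC38A2. BRQ is read here as the DHODH inhibitor of the series title, since the labels do not write the name out. DHODH is the mitochondrial enzyme of pyrimidine synthesis that the inhibitor is aimed at. Both groups share the cell line and the serum-containing medium, neither a dose nor a treatment time is given, and each group has 3 RNA-seq libraries. The libraries may be repeats of 1 culture as far as the labels tell, so every p-value below measures the spread between these libraries.

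Cells take up most amino acids through carriers of the solute carrier (SLC) families. Exchangers such as SLC7A5 and SLC1A5 swap 1 amino acid for another, sodium-coupled carriers such as SLC38A1 and SLC38A2 bring in net supply, and facilitators such as SLC43A2 let amino acids run down their gradient. Leucine, arginine and glutamine brought in this way feed protein synthesis and are sensed by the kinase complex mTORC1, and several of the carrier genes are known targets of the transcription factors ATF4 and MYC. Glutamine and aspartate also supply atoms of the pyrimidine ring.

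The FPKM values were scaled by library totals of 27789225 to 29644462 reads in DMSO and 32195353 to 34908895 reads in BRQ, as worked back from the values. Tested genes correlated at 0.996 to 0.997 between libraries of 1 group and at 0.919 to 0.927 between groups. Of 12 epithelial markers 5 were tested and all 5 rose, where 44.3% of all tested genes were called higher and 35.4% lower. KRT8 went from a mean of 199 to 350 FPKM, KRT18 from 453 to 662 and KRT19 from 3.62 to 30.2 FPKM. EPCAM went from 0.737 to 3.73 and CDH1 from 1.83 to 5.77 FPKM. The other 7 were under 0.5 FPKM in every library and were not tested. Among them NKX2-1 had means of 0.103 in DMSO and 0.0284 in BRQ, KRT5 of 0.00522 and 0.0226, and TP63 of 0.208 and 0.345 FPKM. The 12 summed to 651 to 665 FPKM in DMSO and 1025 to 1105 FPKM in BRQ. The surfactant genes SFTPA1, SFTPB and SFTPC had means of at most 0.0435 FPKM and SFTPD of at most 0.145 FPKM, so mature alveolar markers were near 0. The leukocyte gene PTPRC had means of at most 0.00556 FPKM, while CD68, on the same list and also a lysosomal protein, rose from 48.7 ± 4.02 to 146 ± 4.38 FPKM. CD14, the only other tested gene of that list, rose from a mean of 0.222 to 1.02 FPKM and reached 0.5 FPKM only in BRQ libraries. The summed level of the 4 listed leukocyte markers in the table was 45.7 to 53.5 FPKM in DMSO and 144 to 152 FPKM in BRQ. The 4 fibroblast markers in the table summed to 1.21 to 1.78 FPKM in DMSO and 4.23 to 4.44 FPKM in BRQ, and the 4 endothelial markers to at most 0.0810 and 0.267 FPKM. The part of these levels in the transporter results was not tested.

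The carriers moved in opposite directions. Of the 9 genes, 6 were lower and 3 higher in BRQ at an adjusted p under 0.05 (limma on log2(FPKM + 0.5), Benjamini-Hochberg over 12258 tested genes). The share of all tested genes called was 79.7%, with 44.3% higher and 35.4% lower, so being called does not set the carriers apart. A change of at least 1.5-fold was called for 36.7% of tested genes, 21.8% higher and 14.9% lower. Among the 9 carriers it was called for 2 that rose (SLC38A2 and SLC43A2) and 3 that fell (SLC7A5, SLC1A5 and SLC7A1). The 3 BRQ values lay wholly above or below the 3 DMSO values for all 9 carriers, and for 81.4% of tested genes. The median log2 fold change was -0.30 over the 9 carriers and 0.07 over all tested genes. SLC43A2 passed the filter on low values only through its BRQ libraries, so it could be tested only because it rose. All values are shares of the sequenced RNA, so less RNA per cell from a gene and fewer cells that express it cannot be told apart.

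**Figure D1:**
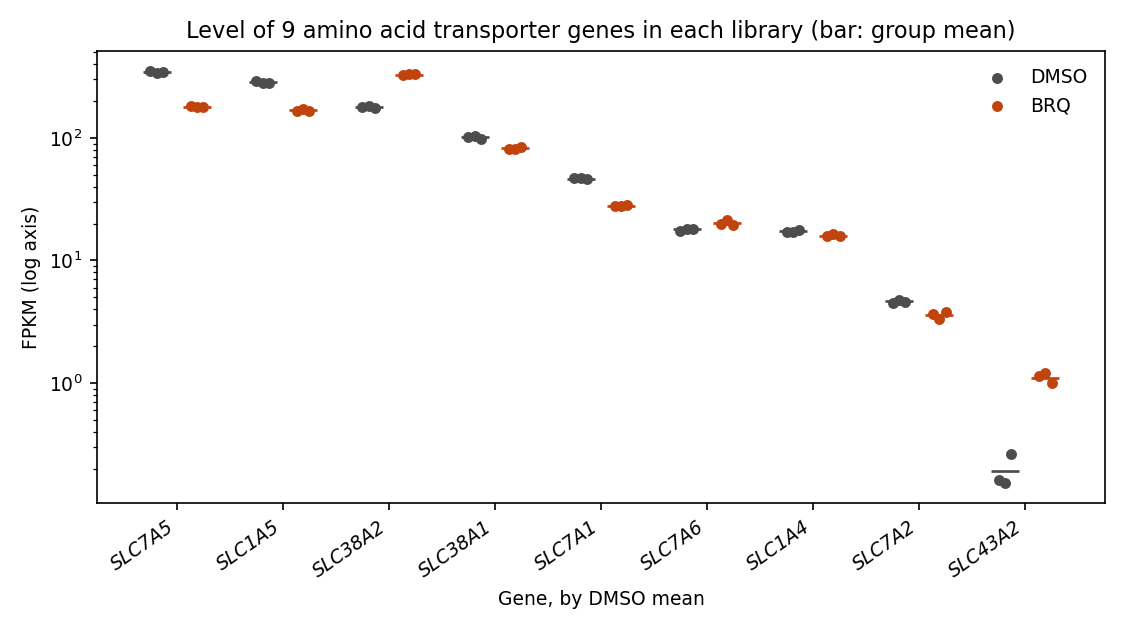
FPKM of the 9 transporter genes on a log axis, with 1 point per library, 3 DMSO and 3 BRQ libraries per gene, and a bar at each group mean. SLC7A5 and SLC1A5 lead in DMSO at means of 343 and 286 FPKM, SLC38A2 leads in BRQ at 329 FPKM, and no gene has overlapping groups.

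The sequence before the start site is printed for SLC7A5, SLC1A5, SLC7A1 and SLC38A2, the carriers with a mean above 1 FPKM in both groups that changed at least 1.5-fold, so that those that fell can be set beside the one that rose. Each run holds the 250 bases before the start at the outer end of the gene, 5′ to 3′ on the gene's own strand, from RefSeq on GRCh38.p14. All 4 genes lie on the minus strand, and the runs are chr16:87869508-87869757 for SLC7A5, chr19:46788595-46788844 for SLC1A5, chr13:29595689-29595938 for SLC7A1 and chr12:46372774-46373023 for SLC38A2. Capitals mark matches to the motifs described next.
SLC7A5: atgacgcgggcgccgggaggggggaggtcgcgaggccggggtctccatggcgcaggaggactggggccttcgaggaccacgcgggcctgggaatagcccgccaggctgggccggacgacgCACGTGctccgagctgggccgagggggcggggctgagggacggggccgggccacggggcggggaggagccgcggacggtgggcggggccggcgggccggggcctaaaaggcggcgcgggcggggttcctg
SLC1A5: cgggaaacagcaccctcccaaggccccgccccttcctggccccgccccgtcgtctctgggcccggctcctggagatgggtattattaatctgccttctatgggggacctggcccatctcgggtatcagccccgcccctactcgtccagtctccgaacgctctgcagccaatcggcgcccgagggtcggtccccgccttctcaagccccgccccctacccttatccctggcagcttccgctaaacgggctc
SLC7A1: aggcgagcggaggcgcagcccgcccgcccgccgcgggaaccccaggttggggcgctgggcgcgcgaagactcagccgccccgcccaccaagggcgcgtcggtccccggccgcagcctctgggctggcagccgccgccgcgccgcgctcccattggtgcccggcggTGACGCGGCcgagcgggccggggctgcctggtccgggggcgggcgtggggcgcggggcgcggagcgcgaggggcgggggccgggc
SLC38A2: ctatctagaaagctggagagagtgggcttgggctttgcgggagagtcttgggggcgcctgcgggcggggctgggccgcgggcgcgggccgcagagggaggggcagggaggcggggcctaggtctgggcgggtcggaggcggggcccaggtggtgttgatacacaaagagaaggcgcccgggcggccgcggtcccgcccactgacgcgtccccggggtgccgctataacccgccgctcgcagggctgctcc

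The runs were searched on both strands for the C/EBP-ATF response element TGATGNAA, through which ATF4 acts, for the E-box CACGTG, which MYC binds, and for the antioxidant response element TGACNNNGC, bound by NRF2. SLC7A5 held 1 E-box, which starts 130 bases before the start site, and SLC7A1 held 1 antioxidant response element, which starts 85 bases before it. The printed SLC1A5 and SLC38A2 runs held none of these letters, but the window at an inner start of SLC1A5 held CACGTG 50 and TGACNNNGC 111 bases before that start. Exons, introns and sequence further upstream were not searched, so a run without a match does not mean a gene without the element. Over 35116 RefSeq windows of this length, 3.14% held TGATGNAA, 6.34% held CACGTG and 10.9% held TGACNNNGC. Of 14 windows of 8 carriers in the table, alternative starts included, 1 held TGATGNAA (at another inner start of SLC1A5), 2 held CACGTG and 3 held TGACNNNGC. No printed run held more than 1 match. These runs were rich in G and C, at 79.6%, 66.8%, 84.4% and 73.6% in the order printed, against a median of 58% over all windows, and they held 34, 19, 43 and 26 CpG sites against a median of 11.

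SLC7A5 carries leucine and other large neutral amino acids into the cell in exchange for glutamine, and works as a pair with the heavy chain SLC3A2. The gene lies on chromosome 16 from 87830023 to 87869507 (GRCh38.p14). It was listed at 350, 336 and 345 FPKM in the DMSO libraries and at 183, 178 and 180 FPKM in the BRQ libraries. Every BRQ library was thus far below every DMSO library, with a ratio of mean FPKM of 0.525. The log2 fold change was -0.93 (SE 0.03, limma adjusted p = 9.26e-10), and 81.8% of tested genes had a smaller absolute change. In DMSO its mean was above that of 99.0% of tested genes, and in BRQ above that of 97.7%. SLC3A2 (chromosome 11, 62856109 to 62888860), the glycoprotein that brings SLC7A5 to the cell surface, was at 366, 367 and 365 FPKM in DMSO and 292, 292 and 281 FPKM in BRQ. It fell too, by a smaller amount (log2 fold change -0.34, SE 0.03, limma adjusted p = 6.34e-07).

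SLC7A6 also pairs with SLC3A2 and exchanges arginine or lysine inside the cell for neutral amino acids and sodium outside it. This carrier (chromosome 16, 68264526 to 68301819) was higher in BRQ, at 19.7, 21.4 and 19.6 FPKM, than in DMSO, at 17.5, 18.1 and 18.2 FPKM. The groups did not overlap, but the rise was small (log2 fold change 0.17, 95% interval 0.06 to 0.27, limma adjusted p = 0.00712), and the median of all tested genes, 0.07, lay inside its interval. SLC7A6 shares exons with SLC7A6OS on the opposite strand, which fell from 8.85 ± 0.215 to 6.01 ± 0.416 FPKM and is named after its values were seen. The strand setting of the counting is not known here, so reads of these 2 genes may be mixed.

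SLC43A2, a facilitator of branched-chain amino acids, phenylalanine and methionine that needs no sodium, had the lowest level of the 9 carriers and a rise whose size depended on the pseudocount and the scaling. Its values were 0.160, 0.154 and 0.263 FPKM in DMSO, from 41, 42 and 69 reads, and 1.13, 1.20 and 0.990 FPKM in BRQ, from 342, 355 and 318 reads. The gene (chromosome 17, 1569254 to 1630088) was thus low in every library and lay well apart between the groups. The ratio of means was 5.75, while the log2 fold change on FPKM + 0.5 was 1.22 (SE 0.11, limma adjusted p = 3.17e-06), because the pseudocount is larger than the DMSO level. With a pseudocount of 0.1 it was 2.06, with a pseudocount of 1 it was 0.82, with limma-voom on the recovered reads 2.55 and with quantile normalization 0.74, and it was called in each. With a pseudocount of 1 or quantile normalization, SLC7A5 and SLC38A2 had larger absolute changes than SLC43A2. With quantile normalization SLC1A5 (-0.83) and SLC7A1 (-0.78) did so as well. Without any 1 of the BRQ libraries the gene no longer passed the filter and was not tested.

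**Figure D2:**
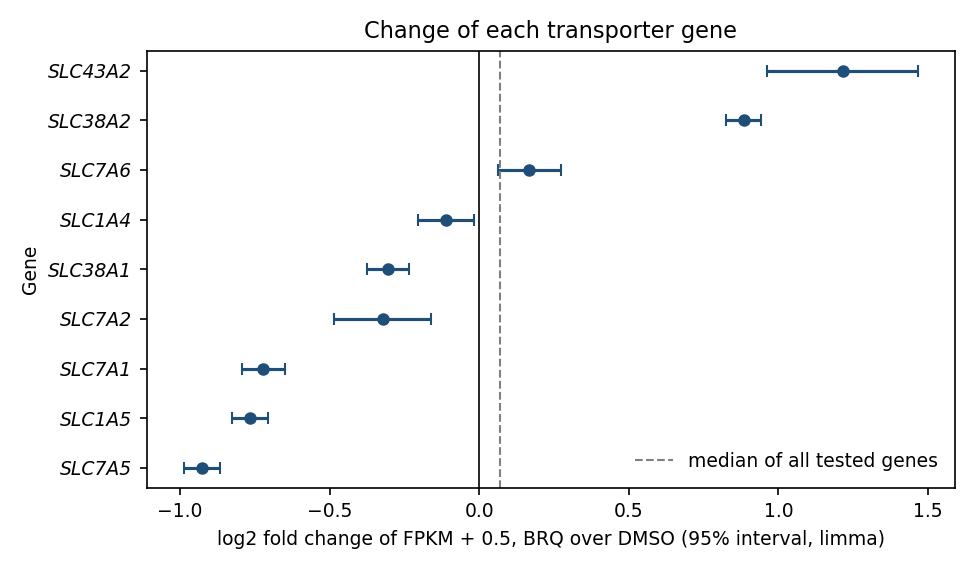
log2 fold change of FPKM + 0.5, BRQ over DMSO, for the 9 transporter genes (points) with 95% intervals from limma (bars), beside the median of all tested genes (dashed line, 0.07). SLC7A5, SLC1A5 and SLC7A1 lie between -0.93 and -0.72, SLC38A2 at 0.88 and SLC43A2 at 1.22, and the interval of SLC1A4 reaches up to -0.02.

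The cationic carriers SLC7A1 and SLC7A2 take up arginine, lysine and ornithine. SLC7A1 (chromosome 13, 29509414 to 29595688), the widely expressed one, was at 46.7, 47.0 and 46.0 FPKM in DMSO and at 27.9, 27.9 and 28.3 FPKM in BRQ. It fell to 0.602 of the DMSO mean with little spread in either group (log2 fold change -0.72, SE 0.03, limma adjusted p = 1.41e-08). SLC7A2 (chromosome 8, 17494069 to 17570566), known as the inducible carrier of macrophages and liver, was at 4.52, 4.79 and 4.58 FPKM in DMSO and 3.69, 3.31 and 3.82 FPKM in BRQ. Its fall was smaller (log2 fold change -0.32, SE 0.07, limma adjusted p = 0.00199), and it rested on 867 to 1155 reads per library. Together the pair went from 51.2 ± 0.605 to 31.6 ± 0.413 FPKM.

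SLC1A5, a sodium-dependent exchanger that is a main route of glutamine uptake in many tumour lines, was at 292, 283 and 282 FPKM in DMSO and at 166, 171 and 166 FPKM in BRQ. The gene (chromosome 19, 46774883 to 46788594) thus fell in all BRQ libraries to a similar level, 0.587 of the DMSO mean (log2 fold change -0.77, adjusted p in limma 3.50e-09, SE 0.03). The related exchanger SLC1A4 (chromosome 2, 64988479 to 65023865), which carries alanine, serine and cysteine, was at 17.0, 17.2 and 17.6 FPKM in DMSO and 15.8, 16.4 and 15.7 FPKM in BRQ. The groups were close to each other without overlapping, and the log2 fold change was -0.11 (SE 0.04, limma adjusted p = 0.0303). That call depended on single libraries: the adjusted p was 0.0550 without DMSO replicate 2, 0.0919 without DMSO replicate 3, 0.0887 without BRQ replicate 1 and 0.0854 without BRQ replicate 3, and ran from 0.00991 to 0.0919 over the alternatives.

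SLC38A2 and SLC38A1, neighbours on chromosome 12, are sodium-coupled carriers of small neutral amino acids such as alanine and glutamine. SLC38A2 (46358188 to 46372773), known in other cell types to be induced by amino acid shortage and hypertonic stress, was the only carrier of the 9 with means above 1 FPKM in both groups to rise by at least 1.5-fold. It went from 178, 181 and 176 FPKM in DMSO to 325, 334 and 329 FPKM in BRQ, so that each BRQ library was far above each DMSO library. The ratio of means was 1.85 and the log2 fold change 0.88 (SE 0.03, limma adjusted p = 8.59e-10). SLC38A1 (46183063 to 46269043), the other of the pair, was at 102, 104 and 98.8 FPKM in DMSO and at 81.5, 80.7 and 83.8 FPKM in BRQ. It thus fell in every BRQ library, by less than SLC7A5 (log2 fold change -0.30, SE 0.03, limma adjusted p = 7.26e-06).

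Ordered by level, the carriers changed places at the top. In DMSO the mean FPKM, a level per gene length, was highest for SLC7A5, followed by SLC1A5, SLC38A2, SLC38A1, SLC7A1, SLC7A6, SLC1A4, SLC7A2 and SLC43A2. Only the neighbours SLC7A6 and SLC1A4 (17.5 to 18.2 and 17.0 to 17.6 FPKM) overlapped in range. In BRQ, SLC38A2 came first and the others kept their sequence, with no overlap between neighbours. SLC38A2 made up 17.9% of the summed FPKM of the 9 carriers in DMSO and 39.8% in BRQ, while SLC7A5 went from 34.5% to 21.8% and SLC1A5 from 28.7% to 20.2%. The summed FPKM of all 9 was 1007, 991 and 988 in DMSO and 824, 834 and 827 in BRQ, a ratio of means of 0.832.

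Ratios within a library do not depend on how the libraries were scaled. The ratio of SLC38A2 to SLC38A1 was 1.75, 1.74 and 1.78 in DMSO and 3.99, 4.14 and 3.93 in BRQ, a log2 difference of 1.19. SLC1A5 over SLC1A4 moved the other way, from 17.1, 16.5 and 16.0 to 10.6, 10.4 and 10.5 (log2 difference -0.65). The ratio of SLC7A5 to its heavy chain SLC3A2 was 0.955, 0.915 and 0.944 in DMSO and 0.627, 0.610 and 0.640 in BRQ, while that of SLC7A6 to SLC3A2 went up from a mean of 0.0489 ± 0.00112 to 0.0701 ± 0.00304. SLC7A5 and SLC7A6, which both pair with SLC3A2, thus parted, and SLC7A5 over SLC7A6 went from 19.2 ± 0.783 to 8.94 ± 0.547. SLC7A1 over SLC7A2 changed least, from 10.1 ± 0.260 to 7.80 ± 0.559 (log2 difference -0.37). SLC7A5 over SLC43A2 had the largest log2 difference, -3.49 (-2.14 with 0.5 added to both values), and rests on the low DMSO values of SLC43A2. None of the 7 pairs of genes had overlapping groups. Each gene of these pairs already had non-overlapping groups by itself, as did 81.4% of tested genes. The share among other pairs of genes was not computed. With 3 libraries against 3 the two-sided exact permutation p was 0.1 for each pair, also after adjustment over the pairs, which is the smallest p this design allows.

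**Figure D3:**
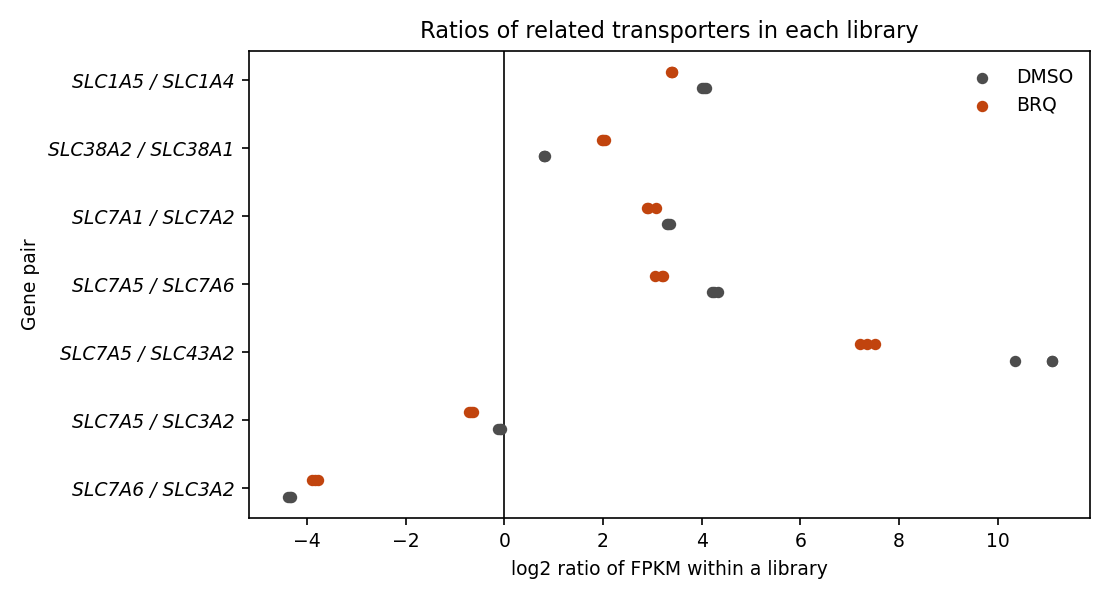
log2 ratio of FPKM between 2 genes of the same library, for 7 pairs of related transporters, with 1 point per library (3 DMSO, 3 BRQ). The BRQ points lie to the right of the DMSO points for SLC38A2 over SLC38A1 and SLC7A6 over SLC3A2, and to the left for the other pairs.

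Other amino acid carriers of the plasma membrane were called in both directions. Of 30 listed genes 27 were in the table and 11 were tested, of which 5 rose, 5 fell and 1 was not called, and their median log2 fold change was 0.08. These counts are near the shares of all tested genes, 44.3% higher and 35.4% lower. SLC6A6, the taurine and beta-alanine carrier, rose from 22.7, 21.2 and 21.0 FPKM to 56.0, 54.5 and 56.6 FPKM (log2 fold change 1.35, adjusted p = 1.05e-09 in limma). SLC7A7, which like SLC7A6 exchanges cationic for neutral amino acids, rose from 5.66 ± 0.923 to 9.91 ± 0.690 FPKM, and SLC7A11, the cystine and glutamate exchanger, from 36.9 ± 2.94 to 54.2 ± 2.25 FPKM. SLC7A8, a relative of SLC7A5 with overlapping substrates, and the heavy chain SLC3A1 rose from 0.0222 to 0.834 FPKM and from 0.235 to 0.706 FPKM, and passed the filter only through BRQ. SLC6A15, a sodium-coupled carrier of branched-chain amino acids and proline, fell from 9.76, 9.86 and 9.45 FPKM to 3.28, 2.75 and 3.0 FPKM (log2 fold change -1.54, adjusted p = 1.59e-08 in limma). The glycine carrier SLC6A9 (-0.51), SLC1A1, a glutamate and cysteine carrier (-0.34), SLC43A1, a relative of SLC43A2 (-0.25), and SLC3A2 also fell. SLC7A11, SLC3A1, SLC6A9, SLC1A1 and SLC43A1 were named after their values were seen. The number higher was 3 without BRQ replicate 1, 2 or 3 and with a mean of at least 1 FPKM as the filter, and 11 with no filter. The number lower was 3 without DMSO replicate 1.

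Downstream of uptake, the genes of amino acid sensing and of mTORC1 with its regulators were lower in 20 of 36 tested cases and higher in 12, with a median log2 fold change of -0.20. This list includes MTOR, RPTOR, MLST8, TSC1, TSC2 and RHEB, which are not amino acid sensors. Of all tested genes 35.4% were lower and 44.3% higher, and SESN3, 1 of the 12, passed the filter only through BRQ. FNIP1, the partner of folliculin, fell from 24.5 ± 0.438 to 7.21 ± 0.480 FPKM and CASTOR1, an arginine sensor, from 16.4 ± 0.426 to 5.10 ± 0.163 FPKM. KICS2 (log2 fold change -1.54) and ITFG2 (-1.53), subunits of the KICSTOR complex that holds the GATOR1 brake at the lysosome, fell as well. With quantile normalization 7 genes of this list, not 12, were called higher. Among lysosomal carriers 7 of 9 listed genes were tested, 1 rose, 2 fell and 4 were not called, where 79.7% of all tested genes were called. CTNS, the lysosomal cystine exporter, fell from 9.12, 9.65 and 9.03 FPKM to 2.58, 3.19 and 2.17 FPKM (log2 fold change -1.65, adjusted p = 1.82e-07 in limma), and MFSD12, which takes part in lysosomal cysteine import, from 26.4 ± 1.66 to 14.4 ± 0.451 FPKM. SLC38A9, the arginine-sensing carrier of the lysosome, rose by 0.25 on the log2 scale.

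The amino acid response genes, which include ATF4 and its known targets, rose in 11 and fell in 11 of 22 cases. Their median log2 fold change was 0.00, and of all tested genes 44.3% rose and 35.4% fell. The list also holds the kinases EIF2AK1, EIF2AK2, EIF2AK3 and EIF2AK4, which act upstream of ATF4 and are not on it as targets. EIF2AK2 (0.54) and EIF2AK4 (0.41) rose and EIF2AK3 (-0.33) fell, and these were named after their values were seen. PPP1R15A, which directs the phosphatase that ends the response, fell from 1095 ± 7.94 to 391 ± 5.21 FPKM, and the transcription factor ATF3 from 142 ± 1.65 to 62.5 ± 2.48 FPKM. SHMT2, a mitochondrial serine and glycine enzyme, rose from 32.4 ± 0.365 to 62.0 ± 3.16 FPKM, and EIF2AK1, the heme-regulated kinase of this response, from 24.6 ± 0.0968 to 39.8 ± 0.602 FPKM. The level of ATF4 mRNA itself was 78.4, 77.7 and 79.2 FPKM in DMSO and 71.4, 70.7 and 71.2 FPKM in BRQ, a small fall (log2 fold change -0.14, limma adjusted p = 0.000934) chosen for mention after its values were seen.

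**Figure D4:**
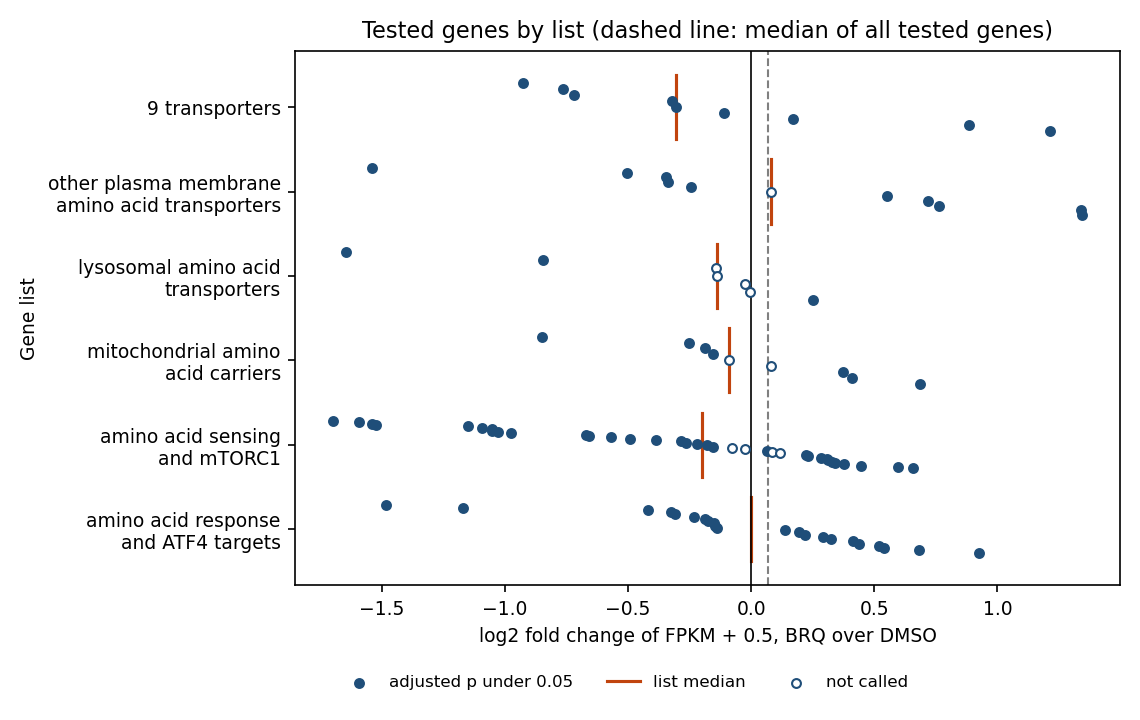
log2 fold change of FPKM + 0.5, BRQ over DMSO, of every tested gene in 6 lists (1 point per gene, filled where the adjusted p was under 0.05 and open where not), with each list's median (red bar) and the median of all tested genes (dashed line, 0.07). Genes of each list lie on both sides of 0, and the list medians run from -0.30 for the 9 transporters to 0.08 for the other plasma membrane carriers.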

How the data were processed

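RNA-seq of 3 DMSO and 3 BRQ libraries of A549 cells was used. The authors deposited FPKM values (fragments per gene length and library total) for 17335 genes. Per the submitters' processing notes, fastp and HTSeq were used with hg38. No tool version is stated there, and the aligner, annotation and strand setting are not known here. Every sample column was used.

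From the FPKM, log2(FPKM + 0.5) was fitted with limma 3.58.1 (R 4.3.3, eBayes with trend, group as the only term) for the 12258 genes at 0.5 FPKM or more in at least 3 libraries, with two-sided p-values. The pseudocount shrinks the changes of low genes. Whole reads and library totals were worked back from the steps between FPKM values (all genes within 0.01 of a whole read) and served for depth and for limma-voom. Ratios used exact permutation tests (scipy 1.17.1). Locations come from RefSeq on GRCh38.p14 by Entrez ID and overlaps from GENCODE release 29.

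The transporters and gene lists were chosen with earlier results of these data known. Named genes are the 9 transporters, SLC3A2, up to 4 called genes per list with the largest change and the 3 tested genes with the nearest profile to SLC7A5; the cell type markers in the text, CD68 among them, were picked from their lists after their values were seen, and other genes are marked as such. Alternatives were pseudocounts of 0.1 and 1, other filters, 2 rescalings, limma-voom, no trend, array weights, a replicate block and leaving out each library.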

Additional observations from a re-analysis of the deposited data

How the results depend on the processing

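The members called numbered 2 to 3 higher and 5 to 6 lower over 16 alternatives. Of 212 recomputed gene and ratio values, 207 counted as unchanged, 5 kept only their direction and 0 reversed. For a gene, unchanged meant the same direction and the same side of the threshold. For a ratio it meant the same direction alone, since its exact permutation p cannot fall under 0.05 with so few libraries. The 5 were all SLC1A4, whose adjusted p in limma was 0.0534 with the replicate number as a block and 0.0550 to 0.0919 without DMSO replicate 2 or 3 or BRQ replicate 1 or 3. SLC43A2 could not be tested without a BRQ library or with a mean of at least 1 FPKM as the filter, because it then failed the filter. Over all tested genes, 4690 to 6571 were called higher and 4061 to 4959 lower. Their median log2 fold change ran from -0.02 (quantile normalization) to 0.08. Same-numbered DMSO and BRQ libraries did not deviate together (correlations -0.04 to -0.01), and no library correlated best with its own number. Correlations this near 0 cannot show whether same-numbered libraries share a culture or a day. With the replicate block 3 members were higher and 5 lower. Depth limits only SLC43A2 among the members, with 41 to 69 reads per DMSO library.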

Other observations

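Carriers of amino acids into mitochondria moved in both directions. Of 11 listed genes 9 were tested, of which 3 rose, 4 fell and 2 were not called, which is close to the 79.7% of all tested genes that were called. SLC25A29, a carrier of arginine, lysine and ornithine, fell from 5.78, 4.82 and 5.32 FPKM to 2.45, 3.08 and 2.65 FPKM (log2 fold change -0.85, adjusted p = 1.16e-05 in limma). SLC25A15, the ornithine carrier of the urea cycle, rose from 5.90, 7.2 and 6.91 FPKM to 10.8, 11.5 and 10.7 FPKM (log2 fold change 0.69, adjusted p = 8.57e-06 in limma). SLC25A44, which carries branched-chain amino acids, and SFXN3, a serine carrier, rose by 0.41 and 0.37 on the log2 scale.

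The tested genes outside the carriers whose values over the 6 libraries lay nearest to those of SLC7A5 were SRPRA, LIF and HBS1L. SRPRA, a subunit of the receptor that docks signal recognition particles at the endoplasmic reticulum, went from 45.8 ± 0.108 to 24.1 ± 0.491 FPKM, LIF, a cytokine of the interleukin 6 family, from 96.0 ± 1.90 to 51.0 ± 0.916 FPKM, and HBS1L, a ribosome rescue factor, from 7.0 ± 0.139 to 3.40 ± 0.132 FPKM. Likeness was the Euclidean distance of centred log2(FPKM + 0.5), which was 0.0415, 0.0464 and 0.0484. With 2 groups of libraries a shared fall alone gives a high correlation, and 29.6% of tested genes correlated with SLC7A5 above 0.9.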
